A study of Homo sapiens with 4 samples.

Results

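The matrix metalloproteinase (MMP), ADAMTS and TIMP genes were described across 4 days of osteoblast differentiation. Members were taken by symbol alone, as MMP, ADAMTS or TIMP followed by a number, and 46 of the 19610 gene symbols in the mRNA table matched: 23 MMP, 19 ADAMTS and 4 TIMP genes, with 115 of its 79798 transcripts. The cells were hFOB1.19, a human foetal osteoblast line immortalised with a temperature-sensitive SV40 large T antigen, which divides at its permissive temperature and differentiates when the temperature is raised. Day 0 was labelled as control and was collected at the permissive temperature. The libraries of days 3, 6 and 9 were labelled as undergoing mineralization and came from cells held at the raised temperature in the same basal medium and serum. Each time point had 1 library, so no difference below has a replicate check, no test was made, and day and temperature cannot be told apart in any comparison with day 0. In bulk RNA, fewer cells of a type and less RNA per cell cannot be told apart either.

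MMPs are zinc proteases that are made as inactive proenzymes and, once activated, cut collagens, fibronectin and many other proteins outside the cell. The ADAMTS proteases are secreted relatives with thrombospondin repeats that trim procollagens, cleave proteoglycans such as versican and aggrecan, or act on single substrates, and the TIMPs are small secreted proteins that block the active site of most MMPs and of some ADAMs and ADAMTS enzymes. In bone, osteoblasts use MMP14 and MMP2 to remodel collagen around themselves, and a TIMP2 molecule held on MMP14 serves as the docking site at which MMP2 is activated.

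The level of a gene is given as FPKM, fragments scaled by transcript length and library size, summed over the gene's transcripts. A gene counted as expressed when it reached 1 FPKM in any library, which 22 of the 46 members did: 9 MMP, 10 ADAMTS and 3 TIMP genes. A difference is given as a log2 ratio after 1 was added to each FPKM, and a gene was counted as higher or lower when that ratio was at least 1 or at most -1, a 2-fold limit. The same rule was applied to all 12859 genes that reached 1 FPKM in any library, as the background. FPKM give no counting interval, but genes with 1 transcript and under 0.1 FPKM sat on whole multiples of a step in 359 of 403 cases within a tolerance of 0.03 of a step, widened in proportion above 4 steps. The step was 1.27 times as large on day 3, 1.19 times on day 6 and 1.03 times on day 9 as on day 0, which puts the read total behind the FPKM of those libraries at 0.785, 0.843 and 0.971 of that on day 0. Read totals from before alignment were not used here.

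The identity of the cells was checked on marker genes. Of 10 osteoblast markers, RUNX2, ALPL, COL1A1, SPARC and SPP1 reached 1 FPKM, while SP7, BGLAP, IBSP, DMP1 and PHEX, which include the defining markers of late osteoblasts and osteocytes, stayed under 1 FPKM in every library. RUNX2, the master regulator of the lineage, was at 7.37 FPKM on day 0 and at 26.2, 19.3 and 18.2 FPKM on days 3, 6 and 9. Markers of other cell types were mostly under 1 FPKM: 0 of 6 neutrophil, 2 of 6 osteoclast and 2 of 8 macrophage markers reached 1 FPKM. The summed macrophage markers ranged from 17.8 FPKM on day 0 to 92.1 on day 9, of which CD68, a lysosomal protein, took 16.2 and 90.6. CD14, the other macrophage marker to reach 1 FPKM, was at 1.07 FPKM on day 0 and 0.398, 0.632 and 0.428 FPKM later. CD163 was listed at 0 throughout. The osteoclast genes CALCR, DCSTAMP and ATP6V0D2 were also listed at 0 in every library, and the summed osteoclast markers ranged from 3.69 to 7.68 FPKM. ACP5, the acid phosphatase of osteoclasts, was higher on all 3 days, at 0.766 FPKM on day 0 and 4.11, 3.47 and 5.57 FPKM later. CTSK, the other osteoclast marker to reach 1 FPKM, was at 2.92 FPKM on day 0 and 1.19, 2.34 and 2.10 FPKM later. The summed endothelial markers ranged from 11.2 to 19.5 FPKM (3 of 6 reached 1 FPKM), the chondrocyte markers from 14.6 to 19.2 (3 of 6, with COL9A1 at 0) and the epithelial markers from 2.67 to 4.38 (1 of 6). TEK, which made up most of the endothelial sum, was at 9.97 FPKM on day 0 and 14.0, 14.5 and 16.6 FPKM later, within the limit. MATN3, the most abundant of the chondrocyte markers, was at 16.9 FPKM on day 0 and 11.7, 8.21 and 8.33 FPKM later, within the limit. SOX9, a transcription factor of cartilage cells, was higher on all 3 days, at 1.21 FPKM on day 0 and 4.48, 5.08 and 5.32 FPKM later. So were CD68 and, among the osteoblast markers, RUNX2 and ALPL, the alkaline phosphatase, which was at 0.294 FPKM on day 0 and 4.32, 4.35 and 4.18 FPKM later. The part of such markers in the results was not tested.

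Most of the expressed members had a level above that of day 0 on the 3 later days, and 4 passed the limit, set after 1 was added, on all of them. By plain FPKM, MMP11, MMP15 and ADAMTS6 were also more than 2-fold above day 0 on all 3 days. MMP11 was at 3.07, 2.51 and 2.32 times day 0 on days 3, 6 and 9. MMP15 was at 2.80, 2.43 and 2.61 times and ADAMTS6 at 2.15, 2.78 and 2.50 times. No background share was counted by plain FPKM. On day 3, 6 of the 22 passed the limit upwards (MMP2, MMP14, MMP15, ADAMTS1, ADAMTS5 and ADAMTS7), which is 27.3%, against 8.13% of all genes tested, and 0 passed it downwards, against 5.30%. On day 6, 7 of the 22 were higher (MMP2, MMP14, ADAMTS1, ADAMTS5, ADAMTS6, ADAMTS12 and TIMP3), against a background of 9.01%, and 0 were lower, against 6.42%. The same 7 genes were higher on day 9, against 9.60%, and 1 gene, MMP16, was lower, against 6.52%. The 4 genes MMP2, MMP14, ADAMTS1 and ADAMTS5 were higher on all 3 days, where 5.93% of all genes tested were, and 0 of the 22 were lower on all 3, where 3.45% were. The 3 comparisons share the day 0 library, so they do not repeat each other independently. Moreover, 3 of the 22 (ADAMTS5, ADAMTS13 and MMP11) were under 1 FPKM on day 0 and entered only through a later library, so they had to differ upwards.

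The median log2 ratio of the 22 genes to day 0 was 0.72 on day 3, 0.62 on day 6 and 0.57 on day 9, while the median over all genes tested was -0.08, -0.08 and -0.09. A ratio above 0 was found for 19, 19 and 17 of the 22 on these days, compared with 44.9%, 45.1% and 44.8% of all genes tested. The later libraries, which share the raised temperature, were nearer to each other. Between days 3 and 6, 0 of the 22 passed the limit in either direction, against 0.607% of all genes upwards and 0.443% downwards. Between days 6 and 9 only TIMP3 passed it upwards, against 0.381%, and 0 genes passed it downwards, against 0.163%. The medians of these 2 steps were -0.05 and -0.05 for the members and -0.0021 and 0.01 for all genes tested. By library, 16 of the 22 were lowest on day 0. The highest library was that of day 3 for 12 genes, of day 9 for 5, of day 6 for 3 and of day 0 for 2.

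**Figure D1:**
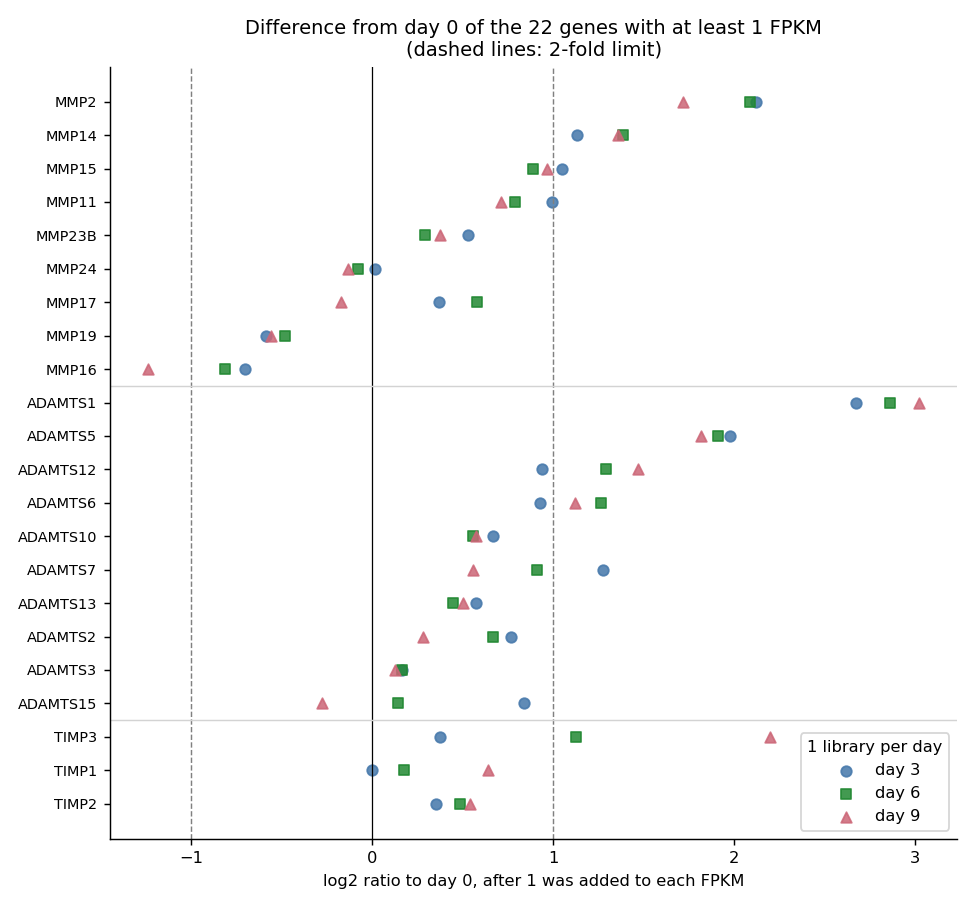
Log2 ratio of each of the 22 expressed genes to day 0 (x axis, after 1 was added to each FPKM), 1 symbol per later day and 1 library per day, with dashed lines at the 2-fold limit. MMP2, MMP14, ADAMTS1 and ADAMTS5 lie to the right of the limit on all 3 days, TIMP3 moves from 0.38 on day 3 to 2.20 on day 9, and only MMP16 lies past the limit on the left, on day 9.

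Among the membrane-type MMPs, which sit on the cell surface, MMP14 (ENSG00000157227) was by far the most abundant MMP. This collagenase and activator of MMP2 was at 60.5 FPKM on day 0 and 134, 160 and 157. on days 3, 6 and 9 All 3 later libraries were above day 0, by 2.21, 2.64 and 2.59 times (log2 ratios 1.13, 1.39 and 1.36), and days 6 and 9 were close to each other. Ranked by FPKM among all symbols it stood at place 1672 on day 0 and at place 500 on day 9. Its close relative MMP16 (ENSG00000156103), also an activator of MMP2, went the other way, with 20.5 FPKM on day 0 and 12.2, 11.2 and 8.14. on days 3, 6 and 9 Day 0 was the highest library and day 9 the lowest, and the log2 ratios were -0.70, -0.81 and -1.24, so that the 2-fold limit was passed on day 9 alone. On day 0 MMP16 had made up 19.2% of the summed FPKM of the MMP genes, and on day 9 it made up 3.85%.

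MMP15 (ENSG00000102996), another transmembrane type, was much lower than MMP14, with 1.47 FPKM on day 0 and 4.12, 3.59 and 3.84 FPKM on days 3, 6 and 9. It was higher on each later day, with log2 ratios of 1.05, 0.89 and 0.97 that lay on both sides of the limit. The other expressed membrane-type genes, MMP17 and MMP24, stayed between 1.86 and 3.81 FPKM and within the limit on all 3 days. MMP24, known mainly from neurons, ranged only from 2.94 to 3.36 FPKM, while MMP24-AS1, an antisense partner listed among the mRNAs, ranged from 52.5 FPKM on day 0 to 26.9 on day 6. The study's methods name a directional library kit, which keeps the strand of the RNA. Whether the authors' counting used strand is not given in the sources used here, so the levels of MMP24 are uncertain. MMP25, a lipid-anchored type of white blood cells, did not exceed 0.21 FPKM, while its antisense transcript MMP25-AS1 was at 4.69, 3.01, 5.53 and 3.45 FPKM on days 0, 3, 6 and 9.

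MMP2 (ENSG00000087245), the gelatinase that MMP14 activates, had the widest difference from day 0 among the 9 expressed MMP genes. It was at 7.18 FPKM on day 0 and 34.6, 33.7 and 25.9. on days 3, 6 and 9 All later libraries were above day 0, by 4.82, 4.70 and 3.60 times (log2 ratios 2.12, 2.09 and 1.72), with day 3 highest. The ratio of MMP14 to MMP2, both on the FPKM scale, was 8.43 on day 0 and 3.88, 4.75 and 6.06. on days 3, 6 and 9 The other gelatinase, MMP9, which osteoclasts, macrophages and neutrophils release, was listed at 0 on day 0 and at 0.288, 0.618 and 0.394 FPKM on days 3, 6 and 9, under the 1 FPKM minimum throughout.

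The remaining expressed MMP genes stayed within the limit. MMP11 (stromelysin-3), which is activated inside the cell by furin, was at 0.922 FPKM on day 0 and at 2.83, 2.32 and 2.14 FPKM afterwards, with a log2 ratio of 0.99 on day 3, just inside the limit. MMP19, a secreted enzyme of basement membrane substrates, was at 8.50 FPKM on day 0 and between 5.33 and 5.81 FPKM later, so that it and MMP16 were the only 2 expressed members with their highest level on day 0. MMP23B ranged from 1.33 to 2.36 FPKM. It has a nearly identical pseudogene neighbour, MMP23A, so its reads may be split and its level is uncertain.

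**Figure D2:**
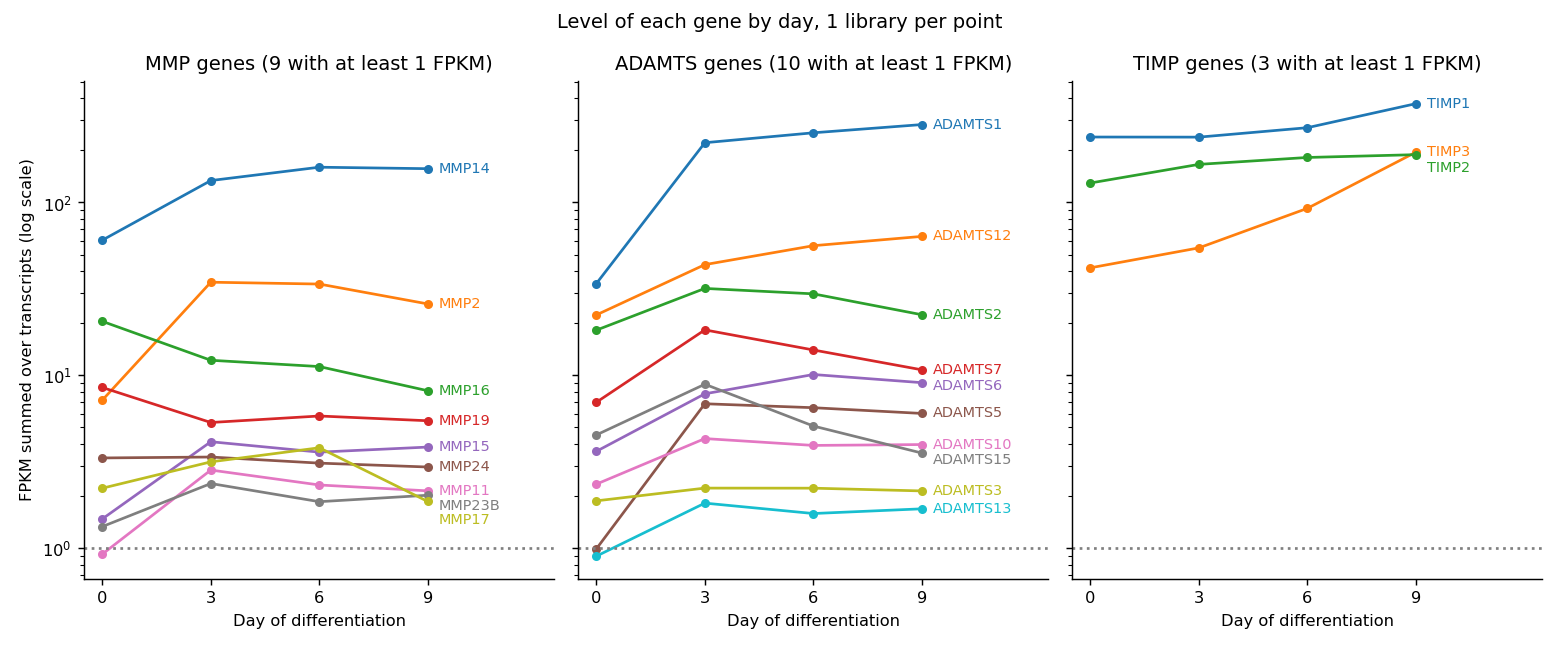
FPKM of each expressed gene (y axis, log scale, summed over transcripts) on days 0, 3, 6 and 9 (x axis) for MMP, ADAMTS and TIMP genes, 1 library per point, with the 1 FPKM minimum dotted. MMP14 ranges from 60.5 to 160 FPKM and ADAMTS1 from 33.9 to 282, TIMP1 is the highest line in its panel on each day, and MMP16 is the line that runs down, from 20.5 to 8.14 FPKM.

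The other 14 MMP genes were under 1 FPKM in every library: the collagenases MMP1, MMP8 and MMP13, the stromelysins MMP3 and MMP10, the matrilysins MMP7 and MMP26, the gelatinase MMP9, and MMP12, MMP20, MMP21, MMP25, MMP27 and MMP28. MMP13 is the collagenase of late osteoblasts and of hypertrophic cartilage, and it did not exceed 0.0845 FPKM. The highest value in this group was 0.827 FPKM, for MMP3 on day 9, where days 0, 3 and 6 had 0.0411, 0.0785 and 0.122 FPKM. MMP1, the interstitial collagenase, was at 0.0211, 0.0537, 0.0250 and 0.174 FPKM, and MMP12, the macrophage elastase, was listed at 0 on day 3 and reached 0.277 FPKM on day 9. By the step of the file, the values of MMP1 and MMP12 may rest on very few reads. The fewest that give those of MMP1 are 1, 2, 1 and 8 reads on days 0, 3, 6 and 9. For MMP12 they are 1, 0, 3 and 12, and the true counts can be higher. In both genes day 9 was the highest library, but with 1 library per day and values this low no change is read from it. No such count was made for MMP3, which has 2 listed transcripts. MMP28 (epilysin) stood at 0.624 FPKM on day 3 and between 0.103 and 0.135 on the other days.

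In the order of protein-coding genes on the RefSeq annotation of GRCh38.p14, 9 members stand next to each other on chromosome 11: MMP7, MMP20, MMP27, MMP8, MMP10, MMP1, MMP3, MMP12 and MMP13. None of these 9 reached 1 FPKM. The expressed genes of the family lie elsewhere. Of the neighbours ADAMTS1 and ADAMTS5 on chromosome 21, both were expressed and both were higher on all 3 days, and of the neighbours ADAMTS8 and ADAMTS15 on chromosome 11, only ADAMTS15 was expressed.

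Promoter windows are set side by side here to show how the letters before the start differ between genes that were expressed and genes that were not. RefSeq windows of 300 bases, from 250 before to 50 after the annotated start, matched 27 of the 46 members, 14 expressed and 13 under 1 FPKM. MMP14, ADAMTS12 and TIMP3 are shown as expressed genes that were higher on days 6 and 9, and MMP7 and MMP10 as genes of the chromosome 11 run, under 1 FPKM in every library. The sequences are written 5′ to 3′ along the gene with coordinates of GRCh38.p14, and capitals mark 4 motifs searched on both strands: TATAAA (the box bound by TBP), TGANTCA (the site of AP-1), GGGCGG (the GC box bound by SP1) and TGTGGT (the core of RUNX sites). None of these motifs contains another.
MMP14, chr14:22836335-22836634, plus strand: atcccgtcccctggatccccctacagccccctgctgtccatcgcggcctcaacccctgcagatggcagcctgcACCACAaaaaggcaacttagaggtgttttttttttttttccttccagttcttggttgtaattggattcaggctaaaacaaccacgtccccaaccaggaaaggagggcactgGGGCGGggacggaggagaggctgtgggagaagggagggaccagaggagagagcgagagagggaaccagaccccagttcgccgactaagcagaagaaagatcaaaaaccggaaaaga
ADAMTS12, chr5:33891941-33892240, minus strand: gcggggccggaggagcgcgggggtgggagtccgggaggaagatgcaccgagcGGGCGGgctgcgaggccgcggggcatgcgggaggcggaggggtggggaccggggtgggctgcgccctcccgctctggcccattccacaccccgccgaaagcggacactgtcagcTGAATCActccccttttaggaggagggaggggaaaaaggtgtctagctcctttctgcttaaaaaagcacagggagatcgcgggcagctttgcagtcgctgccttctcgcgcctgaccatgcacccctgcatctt
TIMP3, chr22:32801455-32801754, plus strand: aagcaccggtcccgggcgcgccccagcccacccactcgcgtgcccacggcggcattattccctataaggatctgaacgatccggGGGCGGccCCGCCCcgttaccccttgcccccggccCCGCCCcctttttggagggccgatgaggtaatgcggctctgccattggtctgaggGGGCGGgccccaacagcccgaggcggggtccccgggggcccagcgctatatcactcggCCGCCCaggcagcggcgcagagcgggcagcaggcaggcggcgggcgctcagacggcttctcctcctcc
MMP7, chr11:102530698-102530997, minus strand: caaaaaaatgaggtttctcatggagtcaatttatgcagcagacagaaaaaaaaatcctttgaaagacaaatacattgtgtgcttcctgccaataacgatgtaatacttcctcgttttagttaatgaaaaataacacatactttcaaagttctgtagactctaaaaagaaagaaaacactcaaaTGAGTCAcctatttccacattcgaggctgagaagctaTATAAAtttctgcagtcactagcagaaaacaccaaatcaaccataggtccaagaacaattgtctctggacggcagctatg
MMP10, chr11:102780579-102780878, minus strand: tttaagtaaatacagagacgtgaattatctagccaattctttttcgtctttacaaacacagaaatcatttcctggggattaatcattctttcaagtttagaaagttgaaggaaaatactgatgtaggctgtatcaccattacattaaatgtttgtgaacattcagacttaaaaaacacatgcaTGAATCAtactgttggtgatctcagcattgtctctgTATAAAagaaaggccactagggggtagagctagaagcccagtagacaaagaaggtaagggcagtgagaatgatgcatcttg

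Positions are counted from the annotated start, with negative values before it. Both MMP7 and MMP10 hold an AP-1 match at -67 and a TATAAA match at -30 (MMP7) or -31 (MMP10), with a GC content of 35.7% and 36.3%. The other windows of the chromosome 11 run differ from this. MMP20 holds an AP-1 match at -112 and TATAAA at -72, MMP8 holds TATAAA at -110 and no AP-1 match, and MMP27 holds neither. The MMP14 window, at 55.0% GC, holds a GC box at -66 and a RUNX core match at -177 and no TATAAA. ADAMTS12, at 67.0% GC, holds a GC box at -198 and an AP-1 match at -84, and TIMP3, at 72.7% GC, holds 5 GC box matches. For each gene 1 window was taken, the one with the lower coordinate where ADAMTS10 had 2. TATAAA was found in 0 of the 14 expressed and 6 of the 13 members under 1 FPKM. These 6, all of them MMP genes, were MMP7 (at -30), MMP8 (-110), MMP10 (-31), MMP20 (-72), MMP21 (-92) and MMP26 (-28). The second ADAMTS10 window, upstream of the first, did hold 1, at -78, so the 0 depends on the window taken. Over all 35116 windows of the RefSeq table, 11.5% held TATAAA. The GC box GGGCGG was found in 12 of the 14 and 6 of the 13, with 45.0% of all windows. Those 6 were ADAMTS14, ADAMTS17, ADAMTS18, ADAMTS19, ADAMTS20 and TIMP4, at 64.0% to 79.7% GC and without TATAAA. The MMP windows among the 13 held no GC box. Those of the expressed MMP11, MMP14, MMP15, MMP23B and MMP24 each held it and no TATAAA. Among the 13, the counts thus also follow the gene family. TGANTCA was found in 1 and 3, with 7.71% of all windows, and TGTGGT in 3 (MMP14, MMP23B and TIMP1) and 1, with 13.1%. The median GC content was 72.7% for the 14 expressed, 61.0% for the 13 under 1 FPKM and 58.7% for all windows. A match in these letters is a description and not a bound site.

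The ADAMTS family was led by ADAMTS1 (ENSG00000154734), a protease of versican and aggrecan. It was at 33.9 FPKM on day 0 and 222, 253 and 282. on days 3, 6 and 9 Every later library was far above day 0, by 6.53, 7.46 and 8.32 times (log2 ratios 2.67, 2.86 and 3.02), and day 9 was the highest. By FPKM it stood at place 3135 of all symbols on day 0 and at place 257 on day 9, above MMP14. ADAMTS5 (ENSG00000154736), the main aggrecan-cleaving enzyme of cartilage, was at 0.989 FPKM on day 0 and 6.84, 6.49 and 6.01. on days 3, 6 and 9 The log2 ratios were 1.98, 1.91 and 1.82, and the later libraries were close to each other. A further proteoglycanase, ADAMTS15, was at 4.52 FPKM on day 0 and 8.87, 5.09 and 3.55 on days 3, 6 and 9, with log2 ratios of 0.84, 0.14 and -0.28 that stayed within the limit. It was highest on day 3, and day 9 was below day 0. The other proteoglycanases ADAMTS4, ADAMTS8, ADAMTS9 and ADAMTS20 did not exceed 0.208 FPKM, and ADAMTS20 was listed at 0 in every library.

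ADAMTS7 and ADAMTS12 cleave cartilage oligomeric matrix protein. ADAMTS12 (ENSG00000151388) was the second most abundant ADAMTS gene, with 22.3 FPKM on day 0 and 43.7, 56.2 and 63.6. on days 3, 6 and 9 Each library was above the one before, and the log2 ratios to day 0 were 0.94, 1.29 and 1.47, past the limit on days 6 and 9. ADAMTS7 (ENSG00000136378) had the opposite course after day 3, with 6.98 FPKM on day 0 and 18.3, 14.0 and 10.8. on days 3, 6 and 9 It was highest on day 3, and its log2 ratios of 1.28, 0.91 and 0.56 passed the limit on that day only. ADAMTS7 has several near-identical pseudogene copies in the genome, so its level is uncertain.

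The closely related ADAMTS6 and ADAMTS10 act on fibrillin microfibrils and cell adhesion. ADAMTS6 (ENSG00000049192) was at 3.63 FPKM on day 0 and 7.81, 10.1 and 9.06 on days 3, 6 and 9, with log2 ratios of 0.93, 1.26 and 1.12. It passed the limit on days 6 and 9, when it was above the day 3 library. ADAMTS10 was at 2.34 FPKM on day 0 and between 3.93 and 4.30 FPKM later, within the limit. The enzymes that remove the amino-terminal propeptide of fibrillar procollagens also stayed within it: ADAMTS2 was at 18.2, 31.8, 29.6 and 22.4 FPKM on days 0, 3, 6 and 9, ADAMTS3 ranged from 1.88 to 2.22 FPKM, and ADAMTS14 did not exceed 0.316 FPKM. ADAMTS13, the von Willebrand factor protease made mainly in liver, ranged from 0.898 to 1.82 FPKM. The 9 ADAMTS genes under 1 FPKM in every library were ADAMTS4, ADAMTS8, ADAMTS9, ADAMTS14, ADAMTS16, ADAMTS17, ADAMTS18, ADAMTS19 and ADAMTS20, and none of them exceeded 0.378 FPKM.

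Of the inhibitors, TIMP3 (ENSG00000100234) differed most. TIMP3 is the TIMP that binds to the matrix and the one that also blocks ADAMTS enzymes and ADAM17. Its level was 41.9 FPKM on day 0 and 54.6, 92.5 and 195. on days 3, 6 and 9 Every library was above the one before, with log2 ratios to day 0 of 0.38, 1.12 and 2.20. The step from day 3 to day 6 was 0.75 and the step from day 6 to day 9 was 1.07, and TIMP3 was thus the only member past the limit between 2 libraries of the same temperature. TIMP3 lies within SYN3, which was listed at 0 in every library. TIMP1 (ENSG00000102265), a secreted inhibitor of most MMPs, was the most abundant member in each library, with 239 FPKM on day 0 and 239, 271 and 373. on days 3, 6 and 9 Day 3 was at 0.999 times day 0, and day 9 was the highest, at 1.56 times day 0 and within the limit. TIMP2 (ENSG00000035862), the partner of MMP14 in the activation of MMP2, was at 130 FPKM on day 0 and 166, 182 and 189. on days 3, 6 and 9 Its log2 ratios of 0.36, 0.49 and 0.54 stayed within the limit, and the later libraries were each above the one before. TIMP4, found mainly in heart and vessels, was at 0.182 FPKM on day 0 and at most 0.0991 FPKM later, and the fewest reads that give these values are 7, 3, 3 and 3.

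**Figure D3:**
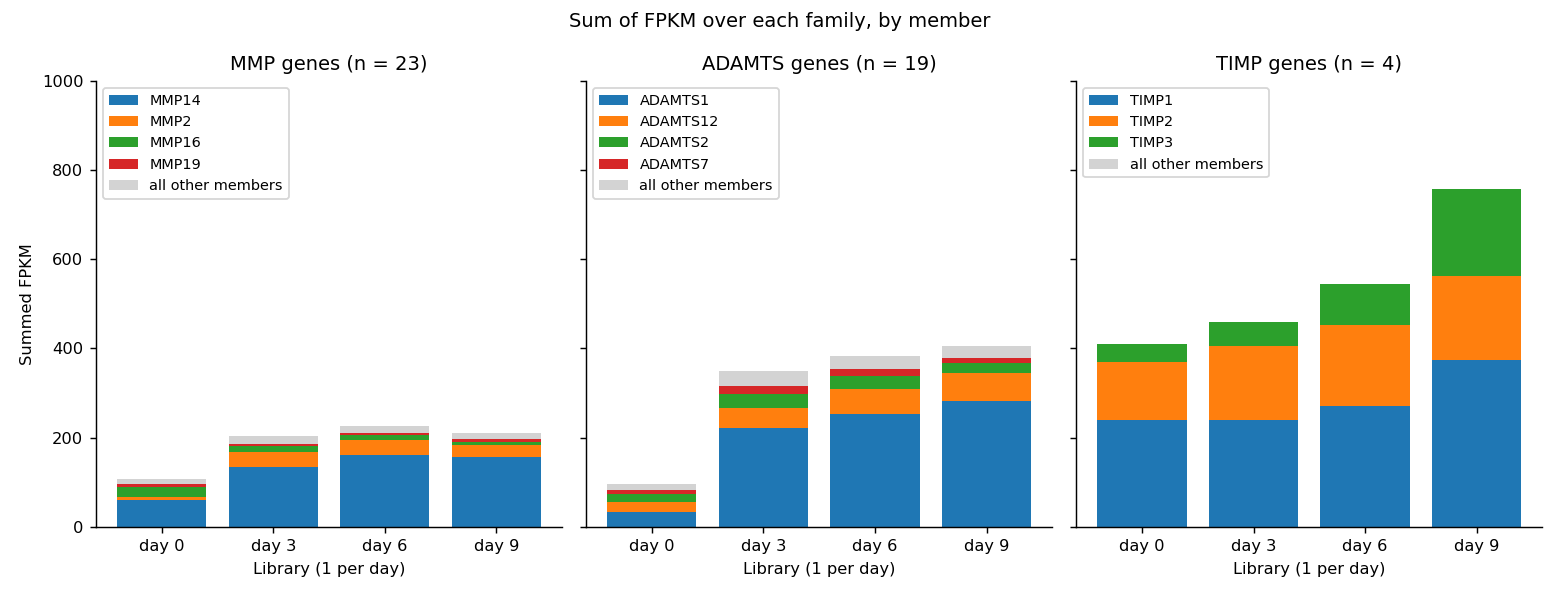
Summed FPKM (y axis) of the 23 MMP, 19 ADAMTS and 4 TIMP genes in each of the 4 libraries (x axis), stacked by member. The ADAMTS bars go from 96.5 to 407 FPKM with ADAMTS1 as the main part, the MMP bars go from 107 to between 203 and 227 FPKM with MMP14 as the main part, and the TIMP bars go from 411 to 758 FPKM with the TIMP3 part widening.

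Summed over each family, the FPKM of the 23 MMP genes were 107 on day 0 and 203, 227 and 211. on days 3, 6 and 9 The sum of the 19 ADAMTS genes was 96.5 on day 0 and 349, 383 and 407 on days 3, 6 and 9, and that of the 4 TIMP genes was 411, 460, 546 and 758. The protease sums were thus above day 0 in each later library, by 1.90, 2.12 and 1.98 times for MMP and 3.61, 3.97 and 4.22 times for ADAMTS genes, while the TIMP sum was at 1.12, 1.33 and 1.84 times. Single genes took much of these sums. MMP14 made up 56.6% of the MMP sum on day 0 and 74.2% on day 9, ADAMTS1 made up 35.2% and 69.5% of the ADAMTS sum, and without it the ADAMTS sums were 2.03, 2.08 and 1.99 times that of day 0. Without MMP14 the MMP sums on days 3, 6 and 9 were 1.496, 1.44 and 1.17 times that of day 0. Without TIMP1 the TIMP sums were 1.29, 1.60 and 2.24 times, more than with it. TIMP1 made up 58.2% of the TIMP sum on day 0 and 49.2% on day 9, while TIMP3 made up 10.2% and 25.8%.

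By family sums, the ratio of inhibitor to protease transcripts was lowest on day 3. The TIMP sum was 3.84 times the MMP sum on day 0 and 2.26, 2.41 and 3.59 times that sum on days 3, 6 and 9. Against MMP and ADAMTS genes together, the ratio was 2.02 on day 0 and 0.833, 0.894 and 1.23. on days 3, 6 and 9 For the pair that meets on the cell surface, TIMP2 was 2.14 times MMP14 on day 0 and 1.24, 1.14 and 1.21 times on days 3, 6 and 9, with day 6 lowest. For TIMP3 and ADAMTS1 the ratio was 1.23 on day 0 and 0.246, 0.365 and 0.692. on days 3, 6 and 9 These are ratios of transcript levels per length, and say nothing of the amounts or the activity of the proteins.

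The transcripts of the members were then compared. Of the 22 expressed genes, 10 had at least 2 transcripts at 1 FPKM or more, and the leading transcript was the same in all 4 libraries for 18 and differed for 4 (ADAMTS2, ADAMTS12, ADAMTS13 and MMP23B). ADAMTS1 was carried by ENST00000284984, at 16.3, 120, 143 and 151 FPKM on days 0, 3, 6 and 9, and by ENST00000517452, at 15.2, 94.9, 99.7 and 119 FPKM. Both were above day 0 in every later library. In ADAMTS12, ENST00000515401 led on day 0 with 48.8% of the gene's FPKM and was at 10.9 FPKM on day 0 and 11.5 on day 3, while ENST00000504830 was at 9.12 and 25.1 FPKM on those days and led afterwards with 57.4%, 53.1% and 48.6%. The difference of ADAMTS12 on day 3 was therefore mainly in the latter transcript. On days 6 and 9 ENST00000515401 also stood higher, at 19.4 and 25.5 FPKM.

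For TIMP1, the main transcript ENST00000218388 was at 166, 170, 202 and 242 FPKM on days 0, 3, 6 and 9. ENST00000377017 was at 69.4, 66.0, 64.8 and 127 FPKM, so that it stood apart on day 9 alone. Both main transcripts of MMP16 were lower on every later day than on day 0, with 11.2 and 5.02 FPKM on days 0 and 9 for ENST00000286614 and 9.32 and 3.12 FPKM for ENST00000522726. The split of reads among transcripts is an estimate of the authors' program and can be unstable: ENST00000597188 of ADAMTS10 was put at 0.000404 FPKM on day 6, when ENST00000270328 took 94.2% of the gene's FPKM, against 53.6% to 64.3% in the other libraries.

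**Figure D4:**
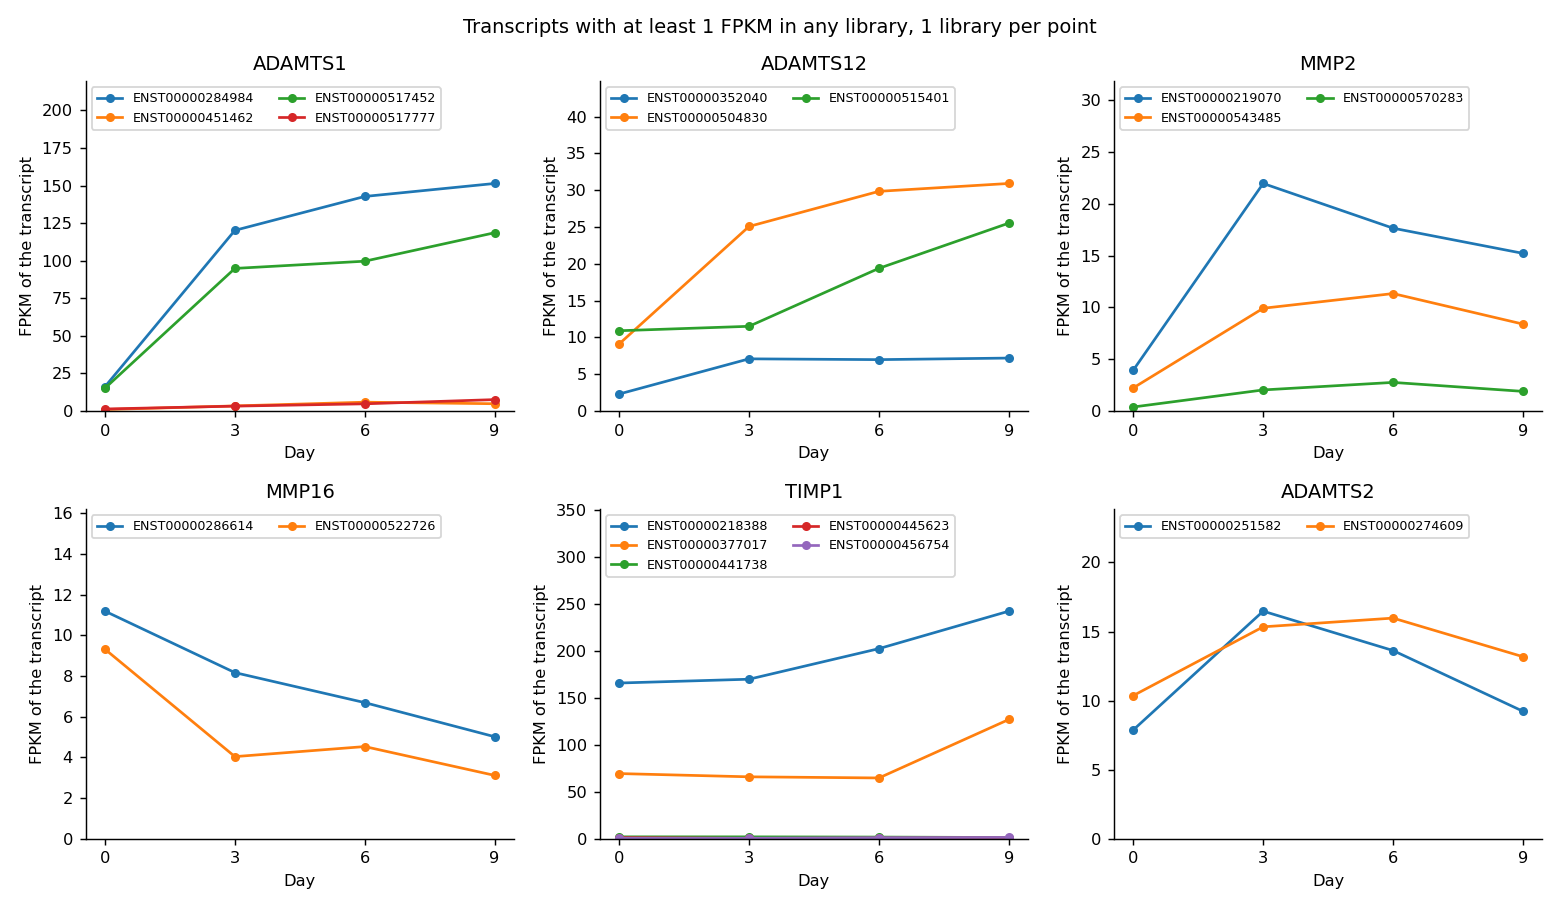
FPKM of each transcript with at least 1 FPKM in any library (y axis, linear, from 0) by day (x axis) for 6 genes, 1 library per point. Both main transcripts of ADAMTS1 are higher and both of MMP16 lower on every later day, whereas in ADAMTS12 ENST00000515401 is at 10.9 and 11.5 FPKM on days 0 and 3 while ENST00000504830 goes from 9.12 to 25.1.

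The genes around these families were taken as 9 lists, and their counts are read against the backgrounds given above. The expressed genes ADAM8, SPOCK3, PCOLCE2, HTRA3 and EREG of these lists, and the markers ALPL, SPP1, ACP5, KDR, CLDN5 and COL10A1, were under 1 FPKM on day 0 and entered only through a later library, so they had to differ upwards in at least that library. Plasminogen activation yields plasmin, which can activate MMP proenzymes. Of 8 expressed genes of this list (10 listed, PLG at 0), 3, 3 and 4 were higher and 1, 1 and 1 lower on days 3, 6 and 9, with median log2 ratios of -0.04, 0.31 and 1.33. Both activators were higher on all 3 days: PLAU was at 4.89, 35.1, 43.4 and 50.2 FPKM and PLAT at 19.6, 95.0, 216 and 356 FPKM on days 0, 3, 6 and 9. The inhibitor SERPINE2 was also higher on all 3 days, at 18.2, 128, 239 and 363 FPKM.

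Furin-like proprotein convertases remove the propeptide of membrane-type MMPs and ADAMTS enzymes. Of the 3 expressed among 6 reported here, 0 were higher on any day and 1, 2 and 2 were lower on days 3, 6 and 9, with medians of -0.98, -1.08 and -1.03. PCSK7 was lower on all 3 days, at 57.8 FPKM on day 0 and 24.2, 22.1 and 22.7 FPKM later. FURIN, named here after its values were seen, was at 35.2 FPKM on day 0 and 17.4, 16.1 and 16.8 FPKM later, with log2 ratios of -0.98, -1.08 and -1.03.

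Of 13 expressed genes among 15 other inhibitors and partners, 5, 8 and 10 were higher and 1, 0 and 0 lower, with medians of 0.74, 1.16 and 1.28. The 5 higher on all 3 days were RECK, SPOCK3, LRP1, THBS2 and CLDN1, of which SPOCK3 entered only through the later libraries, as did PCOLCE2 among the higher genes of days 6 and 9. RECK, a membrane-anchored inhibitor of MMP14, MMP2 and MMP9, was at 2.75 FPKM on day 0 and 8.55, 7.40 and 6.85 FPKM later. LRP1, the endocytic receptor that clears MMP2 and ADAMTS5, was at 47.3 FPKM on day 0 and 158, 153 and 160 FPKM later. THBS2, which hands MMP2 to that receptor, was at 13.9 FPKM on day 0 and 80.3, 66.7 and 54.7 FPKM later, and SPOCK3, an inhibitor of MMP2 activation, was at 0.483 FPKM on day 0 and 2.97, 2.29 and 2.60 FPKM later. CLDN1, a tight junction protein that can promote MMP2 activation by membrane-type MMPs, was at 7.46 FPKM on day 0 and 38.9, 64.2 and 82.2 FPKM later.

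Among the ADAMTS-like proteins, which share the ancillary domains of the ADAMTS family but have no protease domain, 4, 3 and 3 of 5 expressed genes were higher and 0 lower on any day, with medians of 1.56, 1.68 and 1.31 (7 genes listed, since ADAMTSL6 on the list is another name of THSD4). ADAMTSL1, THSD4 and PAPLN were higher on all 3 days, with ADAMTSL1 at 14.9, 45.7, 65.0 and 69.0 FPKM on days 0, 3, 6 and 9. Of 12 expressed among 17 other metzincins, the superfamily that also holds the ADAMs and BMP1, 1 was higher on each day and 0 lower, with medians of 0.28, 0.14 and 0.21. It was PAPPA, a protease of IGF binding proteins, at 6.07 FPKM on day 0 and 108, 126 and 119 FPKM later. Of the 10 other matrix proteases, all expressed, 3 were higher on each day and 0 lower, with medians of 0.60, 0.56 and 0.52. CTSB, a lysosomal cathepsin, was at 142, 332, 479 and 603 FPKM, and HTRA3, a secreted serine protease that entered only through the later libraries, at 0.862, 3.08, 3.03 and 3.10 FPKM.

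Most of the expressed substrates of these proteases were higher on each later day. Of 13 expressed of 20 matrix substrates, 9, 7 and 7 were higher and 0, 1 and 1 lower, with medians of 1.21, 1.03 and 1.20. COL1A2, COL3A1, FN1, FBN2, VCAN and DCN were higher on all 3 days. VCAN, the versican that ADAMTS1 and ADAMTS5 cleave, was at 3.48, 15.7, 19.8 and 26.2 FPKM on days 0, 3, 6 and 9, and COL1A2, a chain of the collagen that MMP14 cuts, was at 125, 856, 753 and 561 FPKM. Of 12 expressed among 16 cytokines and growth factors known to induce MMP genes, 9, 8 and 7 were higher and 0 lower, with medians of 1.31, 1.40 and 1.65. IL1A, IL1B, IL6, LIF, CXCL8, FGF2 and AREG were higher on all 3 days, and IL1B was at 5.41, 43.9, 127 and 280 FPKM. MMP1, MMP3 and MMP13, which interleukin-1 is known for inducing, were under 1 FPKM in every library. They were at 0.0211, 0.0411 and 0.0808 FPKM on day 0 and at 0.174, 0.827 and 0.0845 FPKM on day 9. A link of these values to IL1B was not tested. Of 17 expressed among 19 AP-1 and ETS factors, 2, 3 and 4 were higher and 1, 0 and 0 lower, with medians of 0.01, 0.28 and 0.36. FOSL2 and ATF3 were higher on all 3 days, FOSL2 at 42.9, 112, 113 and 102 FPKM and ATF3 at 8.61, 33.6, 28.9 and 32.3 FPKM.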

How the data were processed

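Total RNA of hFOB1.19 cells was sequenced after rRNA removal, 1 library for each of day 0, 3, 6 and 9. The labels describe RNase R, which digests linear RNA, for the mRNA libraries but no such step for circular RNA. Taken as written, the FPKM would describe RNA left after linear RNA was digested. Whether the step was used on these libraries, or the labels exchange the library types, was not settled here. According to the study's methods, reads were filtered and aligned with TopHat. The submitters' processing notes name Bowtie 0.12.2 and mm8, a mouse build, although the gene and transcript names are human, so no coordinates were taken from the files. The program behind the FPKM is not given in the sources used here. The authors deposited FPKM per transcript for mRNA and lncRNA, already normalized for length and library size, with no counts, and the totals behind them were estimated here only relative to day 0. Here FPKM were summed per symbol, 1 was added and log2 ratios were taken (Python 3.11.15, pandas 2.3.3, numpy 2.4.6, figures with matplotlib 3.10.9). A gene was counted at 2-fold or more with at least 1 FPKM in any library. The counting was tested on simulated data, with changes far past the limit in well expressed genes only. Calls near the limit or at low levels were not checked by it. With 1 library per day no test was made.

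The members and lists were chosen with earlier results of these data known. All members at 1 FPKM are named, with 4 values for those past the limit against day 0 and for the 2 most abundant of each family, and members under 1 FPKM are listed. List genes are named when past the limit on all 3 days. The markers CD14, CTSK, TEK and MATN3 were named after their values were seen. 1 gene of the plasminogen activation list and 1 of the proprotein convertase list are not reported here and were left out of the counts. The 9 comparison tables hold the authors' own fold changes, p-values and q-values and were not used. In all, 26 columns of values per sample were not used: 18 in those tables and 8 for circular RNA, which the files pair with no gene name. Alternatives were another added value (0.1), no minimum or 5 FPKM, a 4-fold limit, rescaling to the same median, the leading transcript alone, and family sums without their most abundant member. RefSeq tables of GRCh38.p14 gave gene order and promoters. The 19 members without a window were ADAMTS1, ADAMTS4, ADAMTS5, ADAMTS8, ADAMTS9, ADAMTS15, ADAMTS16, MMP1, MMP2, MMP3, MMP9, MMP12, MMP13, MMP16, MMP17, MMP19, MMP25, MMP28 and TIMP2.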

Additional observations from a re-analysis of the deposited data

How the results depend on the processing

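With a 4-fold limit, the count of higher members was 2 on day 3 (ADAMTS1 and MMP2) and 2 on day 6 (ADAMTS1 and MMP2). On day 9 that count was 2 (ADAMTS1 and TIMP3). At this limit 1.66%, 2.01% and 2.34% of all genes tested were higher on days 3, 6 and 9. The count of lower members on day 9 was 0, against 1.03% of all genes tested. The count of higher members between days 6 and 9 was 0, against 0.0700%. A stricter limit admits fewer genes. The other settings (0.1 added, no minimum, 5 FPKM, rescaling to the same median, the leading transcript alone) left each count within 1.5 times the reported one. Rescaling reached that edge on day 3, with 9 of the 22 members higher in place of 6, against 9.34% of all genes tested. With 0.1 added, 8, 9 and 9 of the 22 members were higher on days 3, 6 and 9. The background rose along with them, to 1537, 1624 and 1647 of the 12859 genes tested. With 1 added, 1046, 1158 and 1234 of these genes were higher. Without MMP14, the MMP sum on day 9 was 1.17 times day 0. Without ADAMTS1, the ADAMTS sums on days 3, 6 and 9 were 2.03, 2.08 and 1.99 times day 0. The other sums moved by less than 1.5 times, a limit set because FPKM give no interval. Of single genes, MMP11 passed the limit on all 3 days with 0.1 added (log2 ratios 1.52, 1.24 and 1.13), MMP15 on days 6 and 9 (1.23 and 1.32), and ADAMTS6 on day 3 (1.09). With rescaling, ADAMTS12, ADAMTS6 and MMP11 passed it on day 3 (1.03, 1.01 and 1.05) and MMP15 on day 9 (1.02). With the leading transcript alone, ADAMTS12 passed it on day 3 (1.37) and ADAMTS10 on day 6 (1.02). No ratio past the limit changed sign in these settings. No paired analysis was possible because day 0, 3, 6 and 9 have 1 library each, which also leaves no library to leave out.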
